A study of Homo sapiens with 4 samples.

Results

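Chemokines that intestinal epithelium makes were examined in 2 pairs of modified human colorectal cancer lines. The 9 genes were CXCL1, CXCL2, CXCL3, CXCL5, CXCL8, CCL20, CXCL16, CX3CL1 and CCL28, out of 19775 genes read on the arrays. They were chosen with earlier results of these data known. Every probe set annotated to exactly 1 of these symbols was taken, which gave 17 probe sets. RNA of LS174T, a mucin-producing colon adenocarcinoma line, was measured as LS174T-siCDX1 and as its vector control LS174T-siVec. RNA of HCT116, a colorectal carcinoma line, was measured as HCT116-CDX1 and as HCT116-Vec. The names were read as lowered CDX1 in the first pair and added CDX1 in the second. CDX1 encodes a homeodomain protein that drives intestinal cell fate, and the series concerned its control of cytokeratin 20. Each of the 4 modified lines had 1 array. The labels did not give the vectors, the small interfering sequence, or whether a line was 1 clone or a pool.

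Expression is given as deposited RMA values in log2 units, where a difference of 1 is 2-fold. A gene was taken as measured in a comparison when the brighter array read at least 6, and such a gene is said to have risen, fallen or changed where 2 arrays differed by 2-fold or more. With 1 array per modified line there was no replicate of any of them, so no difference between 2 arrays has an error or a p-value, and precision is limited throughout by the number of arrays. In RNA of whole cultures, fewer cells that express a gene and less of its RNA per cell cannot be told apart.

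Array medians lay between 7.04 and 7.06, a closeness that RMA normalisation itself can set, and RNA quality was not analysed here. The probe sets correlated (Pearson r) at 0.989 in the LS174T pair, at 0.988 in the HCT116 pair and at 0.933 to 0.937 across lines. The 6 epithelial marker genes (EPCAM, KRT8, KRT18, CDH1, VIL1 and CDX2) read above 6 on every array. On the HCT116 arrays VIL1 read 7.04 to 7.26 and CDX2 7.52 to 7.62. Of the marker genes of other cells, 3 or 4 of 5 leukocyte, 5 of 6 fibroblast and 2 of 4 endothelial genes read above 6, the fourth leukocyte gene being LYZ in LS174T. The leukocyte list named 8 genes, of which 5 were read. The T cell gene CD3E read 7.76 to 8.07 on all 4 arrays, and the fibroblast gene COL1A1 8.86 to 9.14. A level of 6 to 9 is thus not by itself evidence of a transcript, which also holds for VIL1 and CDX2 in HCT116. CDX1 read 9.06 in LS174T-siCDX1 and 10.46 in LS174T-siVec, a fall of 1.40. It read 8.24 on the array labelled HCT116-CDX1 and 8.21 in HCT116-Vec. Its probe set did not show the gain that this label names, so directions in the HCT116 pair rest on the label.

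Chemokines are small secreted proteins that guide leukocytes through G protein-coupled receptors. CXCL1, CXCL2, CXCL3, CXCL5 and CXCL8 carry a glutamate-leucine-arginine motif and attract neutrophils through CXCR2, and CXCL8 also through CXCR1. CCL20 draws CCR6-bearing dendritic cells and lymphocytes to mucosal epithelium, and CCL28 draws IgA plasma cells through CCR10. CXCL16 and CX3CL1 are made as membrane proteins with a chemokine domain on a mucin stalk, and metalloproteases of the ADAM family release them. Interleukin-1, tumour necrosis factor and bacterial flagellin induce several of these genes in gut epithelium through NF-kappaB.

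Promoters are shown for the 5 genes with the lowest differences in LS174T-siCDX1, of which 4 lie in one gene cluster and 3 are close copies. Along chromosome 4 the RefSeq order of the chemokine genes is CXCL8, CXCL6, PF4V1, CXCL1, PF4, PPBP, CXCL5, CXCL3 and CXCL2, while CCL20 is on chromosome 2, CCL28 on 5, CX3CL1 on 16 and CXCL16 on 17. The RefSeq table of build GRCh38.p14 held promoters of 7 of the 9 genes, all but CXCL16 and CX3CL1. The 250 bases before the start are printed 5′ to 3′ for CCL20 (chr2:227813592-227813841 on the plus strand), CXCL1 (chr4:73869143-73869392 on the plus strand), CXCL2 (chr4:74099196-74099445 on the minus strand), CXCL3 (chr4:74038690-74038939 on the minus strand) and CXCL8 (chr4:73740319-73740568 on the plus strand). Capitals mark matches, on either strand, to the kappaB motif GGNNTTTCC, the AP-1 motif TGANTCA, the CDX motif TTTATG or the TATA box TATAAA.

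CCL20: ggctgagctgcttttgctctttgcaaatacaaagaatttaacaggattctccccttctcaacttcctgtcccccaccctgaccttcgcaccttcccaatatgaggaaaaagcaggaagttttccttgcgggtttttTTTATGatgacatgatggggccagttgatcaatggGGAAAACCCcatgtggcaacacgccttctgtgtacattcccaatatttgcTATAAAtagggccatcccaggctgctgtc

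CXCL1: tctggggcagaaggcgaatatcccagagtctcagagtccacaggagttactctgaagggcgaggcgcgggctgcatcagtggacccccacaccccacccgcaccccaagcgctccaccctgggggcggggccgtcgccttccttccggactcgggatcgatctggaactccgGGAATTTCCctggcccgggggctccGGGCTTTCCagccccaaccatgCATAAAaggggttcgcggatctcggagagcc

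CXCL2: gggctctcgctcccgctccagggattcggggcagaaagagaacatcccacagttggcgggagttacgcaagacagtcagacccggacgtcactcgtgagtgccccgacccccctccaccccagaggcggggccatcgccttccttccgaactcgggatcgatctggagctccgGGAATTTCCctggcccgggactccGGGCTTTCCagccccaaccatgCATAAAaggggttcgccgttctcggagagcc

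CXCL3: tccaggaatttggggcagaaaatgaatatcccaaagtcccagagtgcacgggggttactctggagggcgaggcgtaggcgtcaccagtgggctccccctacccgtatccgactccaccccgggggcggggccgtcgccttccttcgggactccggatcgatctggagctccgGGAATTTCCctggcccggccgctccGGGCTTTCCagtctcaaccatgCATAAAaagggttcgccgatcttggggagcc

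CXCL8: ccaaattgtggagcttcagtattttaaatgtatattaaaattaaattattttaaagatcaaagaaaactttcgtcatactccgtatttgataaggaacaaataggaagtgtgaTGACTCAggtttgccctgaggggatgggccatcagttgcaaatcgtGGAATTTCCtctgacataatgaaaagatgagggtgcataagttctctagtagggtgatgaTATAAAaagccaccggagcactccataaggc

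A kappaB match stood in the promoters of 6 of the 7 genes, CCL28 being the exception with both of its promoters, against 5.48% of 35116 promoter windows of the same length. CXCL1 and CXCL3 each had 2 of them, at -78 to -70 and at -53 to -45 from the start, and CXCL2 had its pair at -77 to -69 and -53 to -45. The CDX letters stood in 4 genes, CCL20, CXCL1, CXCL2 and CXCL3, against 9.64% of all windows. In CCL20 the match read TTTATG at -114 to -109. In CXCL1, CXCL2 and CXCL3 it was the reverse strand CATAAA at -31 to -26, the same place as the TATAAA of CXCL8. An AP-1 match was found in CXCL8 alone, at -137 to -131, against 6.57% of windows, and a TATAAA in CCL20 and CXCL8, against 10.7%. No match of one motif overlapped a match of another. Aligned end to end, CXCL1 shared 84.0% of its 250 bases with CXCL3 and 72.4% with CXCL2, and CXCL2 shared 78.0% with CXCL3. Identity to CXCL8 was 36.0% to 44.0% for these 3 and 43.6% for CCL20. These matches describe letters and show no binding.

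**Figure D1:**
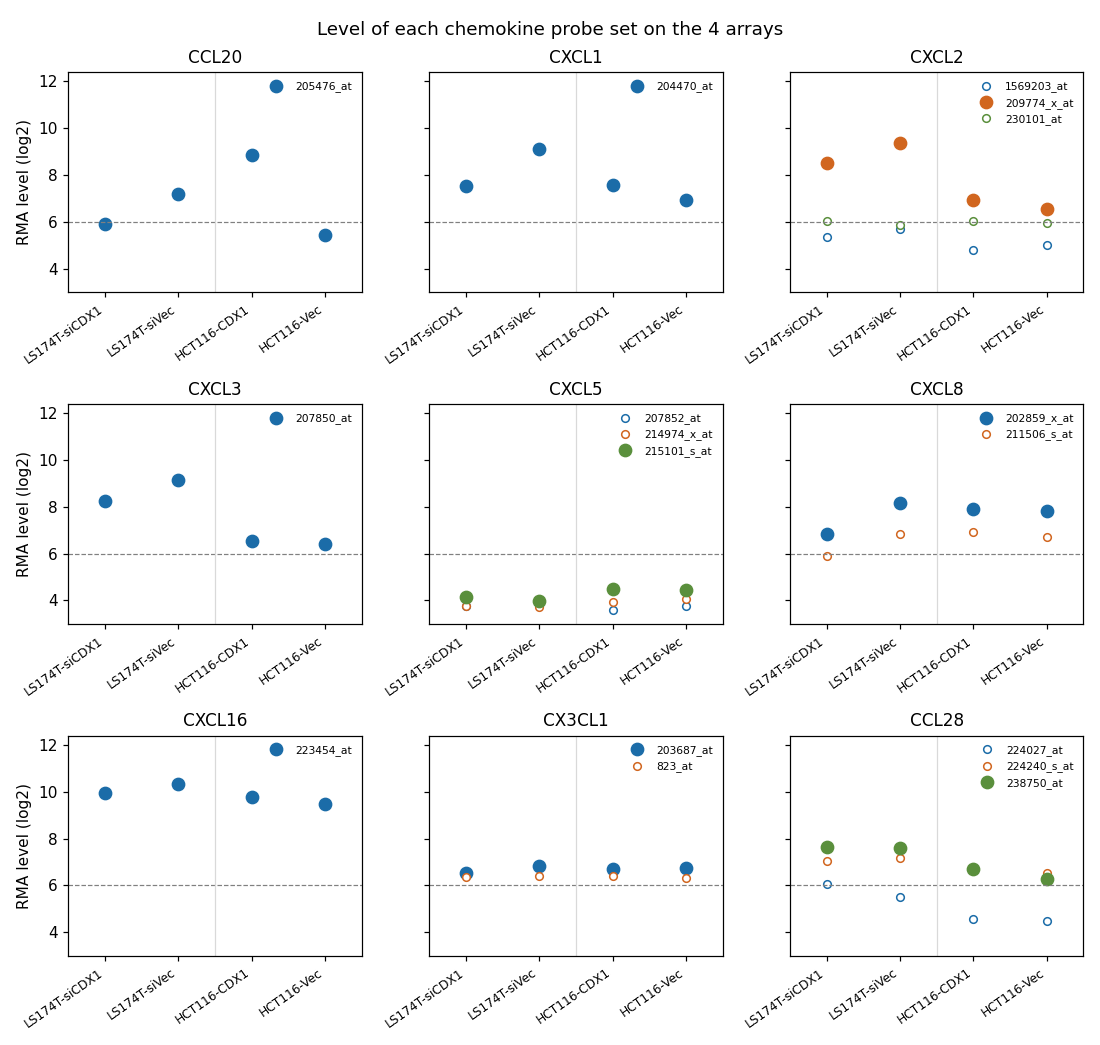
RMA level (log2, y axis) of every probe set of the 9 chemokine genes on the 4 arrays (x axis). Large filled points are the probe set read for the gene, open points its other probe sets, and the dashed line is the level of 6. CCL20 was highest on the array labelled HCT116-CDX1. The probe sets read for CXCL2 and CXCL3 were highest on both LS174T arrays, and the CXCL5 probe sets stayed under 6 throughout.

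Among the neutrophil-attracting chemokines, CXCL1 and CXCL8 fell in LS174T-siCDX1, and CXCL2 and CXCL3 were lower there by a little less than the threshold. CXCL1 read 7.53 in LS174T-siCDX1 and 9.11 in LS174T-siVec, and 7.58 on the array labelled HCT116-CDX1 and 6.93 in HCT116-Vec. Its LS174T-siVec level stood apart at the top, 1.53 above the next array, and the 2 arrays in the middle of the order were 0.05 apart. It fell by 1.57, or 2.98-fold, in LS174T-siCDX1, and only 0.775% of measured genes moved as far in that pair. On the array labelled HCT116-CDX1 it was 0.65 above HCT116-Vec, under the 2-fold threshold. Apart from the 9.11 in LS174T-siVec, which lay within the readings of COL1A1, the CXCL1 readings lay below those of CD3E. Both differences are thus as read and depend on what low readings hold.

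CXCL8, also known as interleukin-8, read 6.84 in LS174T-siCDX1 and 8.16 in LS174T-siVec, and 7.91 on the array labelled HCT116-CDX1 and 7.82 in HCT116-Vec. One array was low and the other 3 lay within 0.34 of each other. The fall in LS174T-siCDX1 was 1.32, or 2.49-fold. CXCL8 read near or below the 7.76 to 8.07 of CD3E on all 4 arrays, so this fold is as read and depends on what low readings hold. Both of its probe sets bear names that mark shared transcripts, and the second, at 5.88 in LS174T-siCDX1 and 6.85 in LS174T-siVec, fell short of 2-fold at -0.97.

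CXCL3 read 8.23 in LS174T-siCDX1 and 9.13 in LS174T-siVec, and 6.54 on the array labelled HCT116-CDX1 and 6.41 in HCT116-Vec. The probe set read for CXCL2 gave 8.51 and 9.38 in LS174T-siCDX1 and LS174T-siVec, and 6.94 and 6.54 on the array labelled HCT116-CDX1 and in HCT116-Vec. For both genes each LS174T array was above each HCT116 array. The siCDX1 differences were -0.90 for CXCL3 and -0.87 for CXCL2. In the HCT116 pair CXCL3 differed by 0.12 and CXCL2 by 0.40. The CXCL3 readings lay within or below those of COL1A1, and of the CXCL2 readings only the 9.38 lay above them. These differences are thus as read.

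The CXCL2 reading rests on 1 of 3 probe sets. The one that moved bears a name ending in _x_at, which marks probes matching several transcripts, and after removal of each gene's mean it ran within 0.10 (root mean square, log2) of CXCL3 over the 4 arrays. Another probe set read 6.05 in LS174T-siCDX1, 5.86 in LS174T-siVec, 6.04 on the array labelled HCT116-CDX1 and 5.96 in HCT116-Vec. The remaining one stayed under 6, between 4.80 and 5.67. Whether the _x_at probe set also binds CXCL1 or CXCL3 RNA was not tested. CXCL5, the remaining member of this class, stayed under 6 in all 3 of its probe sets and on all 4 arrays, with readings of 3.58 to 4.48, and gave no measured difference.

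CCL20 had the widest span of the 9 genes, at least 2.86 on the log2 scale with its readings under 6 set to 6. On that scale the lead was small, as the probe set read for CXCL2 spanned 2.84 and that of CXCL3 2.72. CCL20 read 5.89 in LS174T-siCDX1 and 7.20 in LS174T-siVec, and 8.86 on the array labelled HCT116-CDX1 and 5.45 in HCT116-Vec. Its 2 lower arrays, HCT116-Vec and LS174T-siCDX1, lay under 6 and 0.44 apart. With readings under 6 set to 6 in all genes, its rise on the array labelled HCT116-CDX1 was at least 2.86, or 7.26-fold, and 9 of 16914 measured genes, itself included, moved as far or farther. The difference as read was 3.41. On the same terms its fall in LS174T-siCDX1 was at least 2.30-fold (1.31 as read), and 1.15% of measured genes moved as far. Its 7.20 in LS174T-siVec lay below the readings of CD3E, and its 8.86 on the array labelled HCT116-CDX1 did not exceed those of COL1A1. Both folds thus depend on what low readings hold. CCL20 has 1 probe set, so no second reading was at hand.

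The membrane-bound chemokines moved little. CXCL16, the ligand of CXCR6, read 9.95 in LS174T-siCDX1 and 10.34 in LS174T-siVec, and 9.76 on the array labelled HCT116-CDX1 and 9.47 in HCT116-Vec. Its 4 levels spanned 0.87, with neighbours in the order at most 0.39 apart. CX3CL1, the ligand of CX3CR1, read 6.51 in LS174T-siCDX1 and 6.84 in LS174T-siVec, and 6.71 on the array labelled HCT116-CDX1 and 6.75 in HCT116-Vec. That span of 0.32 was the smallest of the 9, its second probe set read 6.34 to 6.40, and both lay below the readings of CD3E. CCL28 followed the cell line: 7.63 in LS174T-siCDX1 and 7.59 in LS174T-siVec, and 6.72 on the array labelled HCT116-CDX1 and 6.26 in HCT116-Vec. These readings too lay below those of CD3E. Between LS174T-siVec and HCT116-Vec its second probe set differed by 0.61, at 7.15 against 6.55, and the remaining one by 1.04 from readings under 6.

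**Figure D2:**
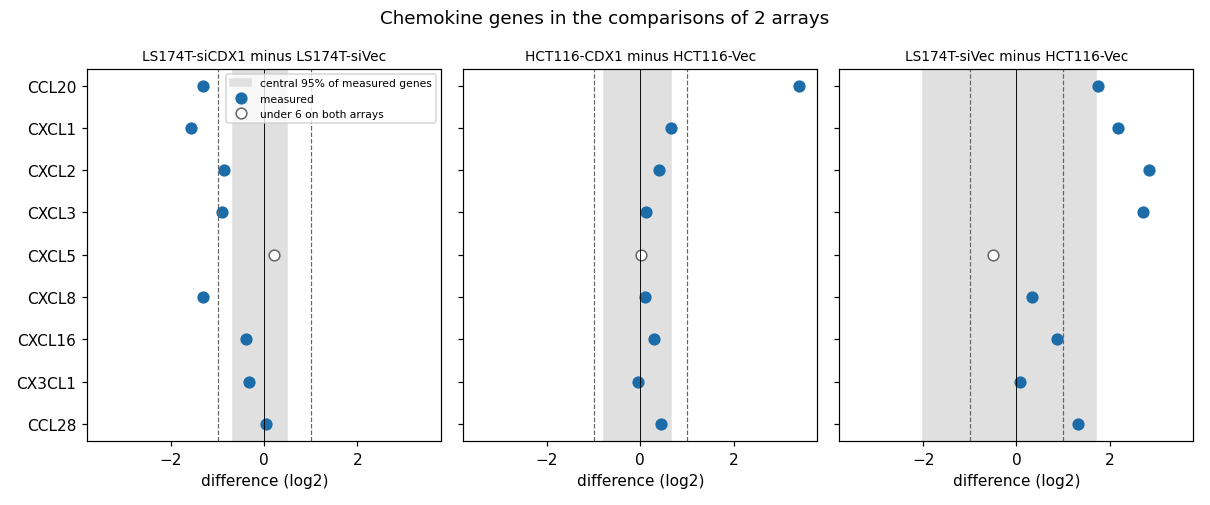
Difference (log2, x axis) of each of the 9 chemokine genes in the 3 comparisons of 2 arrays. Grey bands hold the central 95% of all measured genes, dashed lines mark 2-fold, and the open point is CXCL5, under 6 on both arrays. In the LS174T pair CCL20, CXCL1 and CXCL8 lie below the lower 2-fold line, and in the HCT116 pair CCL20 lies far above the upper one.

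Counted together, 3 of 8 measured chemokine genes fell in LS174T-siCDX1 and 0 rose, where 1.25% of 16896 measured genes fell and 0.598% rose. They were CCL20, CXCL1 and CXCL8. The median over the 8 was -0.89, beside -0.01 over all measured genes, and 7 of the 8 lay below 0. On the array labelled HCT116-CDX1, 1 of 8 rose and 0 fell, where 0.916% of 16914 genes rose and 0.97% fell. The median there was 0.34, beside -0.01 over all measured genes, and 7 of the 8 lay above 0. In LS174T-siVec, 5 of 8 were at least 2-fold above HCT116-Vec and 0 below, where 6.03% of 17043 measured genes were above and 7.33% below. Those 5 were CXCL2 (7.17-fold), CXCL3 (6.59-fold), CXCL1 (4.53-fold), CCL20 (at least 2.30-fold) and CCL28 (2.50-fold). The HCT116-Vec readings of CXCL1, CXCL2, CXCL3 and CCL28, 6.26 to 6.93, lay below those of CD3E, so these folds are as read and depend on what low readings hold. The median was 1.54, beside 0.01 over all measured genes. CXCL8 differed by 0.34 between the vector arrays, CXCL16 by 0.87 and CX3CL1 by 0.09. The vector arrays each serve in 2 of these comparisons, so the comparison of LS174T-siVec with HCT116-Vec is not independent of the others. The chemokine genes were chosen with earlier results of these data known, so these counts and shares describe and do not test. The epithelial marker genes had medians of -0.45 in the LS174T pair and 0.30 in the HCT116 pair, with KRT8 at -1.49 in the first. Their summed level (log2) was 14.39 in LS174T-siCDX1 and 15.04 in LS174T-siVec, and 14.97 on the array labelled HCT116-CDX1 and 14.63 in HCT116-Vec, and its part in the chemokine differences was not tested.

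**Figure D3:**
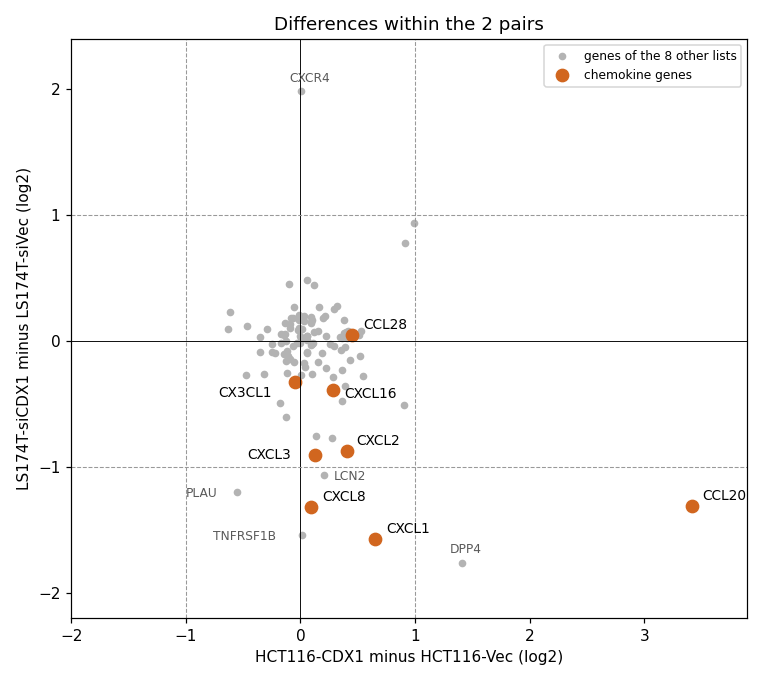
Difference of each measured gene in the HCT116 pair (x axis) and in the LS174T pair (y axis), both log2. Orange points are the chemokine genes, grey points the genes of 8 related lists, and dashed lines mark 2-fold; CCL20 and DPP4 are past 2-fold in both pairs, higher on the array labelled HCT116-CDX1 and lower in LS174T-siCDX1.

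All 4 arrays were fitted together with limma, with cell line and CDX1 label as terms, over 17280 genes with at least 1 array at 6 or more. Of the 8 chemokine genes tested, 3 differed between the lines at a Benjamini-Hochberg adjusted p under 0.05, as did 16.1% of all genes tested. In limma, CXCL2 was 2.20 higher in LS174T than in HCT116 (95% interval 1.71 to 2.69, adjusted p = 0.00518), and 0.92 higher as the mean of its 3 probe sets (limma adjusted p = 0.026). That mean still holds the _x_at probe set. Between the vector arrays the other CXCL2 probe sets differed by -0.10 and by 0.68, from readings under 6. No limma setting left out the _x_at probe set, so the fit cannot show whether the CXCL2 difference rests on it. CXCL3 was 2.21 higher (95% interval 1.58 to 2.83, limma adjusted p = 0.0091). CCL28 was 1.12 higher (95% interval 0.62 to 1.62, limma adjusted p = 0.0261). CXCL1 missed the threshold at 1.07 (95% interval 0.36 to 1.77, limma adjusted p = 0.0656), and its value was 0.61 without HCT116-CDX1 or without LS174T-siVec. The 2 arrays of a line were differently modified cultures standing in as replicates. The 1 residual degree of freedom was how far the CDX1 label difference was unlike in the 2 lines, moderated over all genes. The intervals and p-values thus hold no spread between replicate cultures. The summed level of the 5 leukocyte genes also went with the line, at 11.95 and 11.52 in LS174T-siCDX1 and LS174T-siVec against 8.99 and 9.03 on the array labelled HCT116-CDX1 and in HCT116-Vec. LYZ was the 1 gene of the 5 past 2-fold between the vector arrays, and CD14 stayed under 6 on all 4 arrays. Its part in the line differences was not tested.

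For the CDX1 label, higher being the array labelled HCT116-CDX1 and LS174T-siVec, 0 of 17280 genes passed an adjusted p under 0.05 in limma, which is 0% of genes tested, and 518 had an unadjusted p under 0.05. The mean over both lines was 2.36 for CCL20 (95% interval 0.98 to 3.75, limma unadjusted p = 0.00804, adjusted p = 0.999), higher in both lines. It was 3.41 in the HCT116 pair and 1.31 in the LS174T pair as read, each with 1 reading under 6. It was 1.11 for CXCL1 (95% interval 0.41 to 1.81, limma unadjusted p = 0.0106, adjusted p = 0.999), also higher in both lines, by 0.65 in the HCT116 pair and 1.57 in the LS174T pair. CXCL2, read from its _x_at probe set, was the third of the 8 tested chemokine genes with an unadjusted p under 0.05. It was 0.64 (95% interval 0.15 to 1.13, limma unadjusted p = 0.0214, adjusted p = 0.999), and 0.22 as the mean of its probe sets. With 1 residual degree of freedom, none of these 3 genes differed beyond what the correction over all genes requires.

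**Figure D4:**
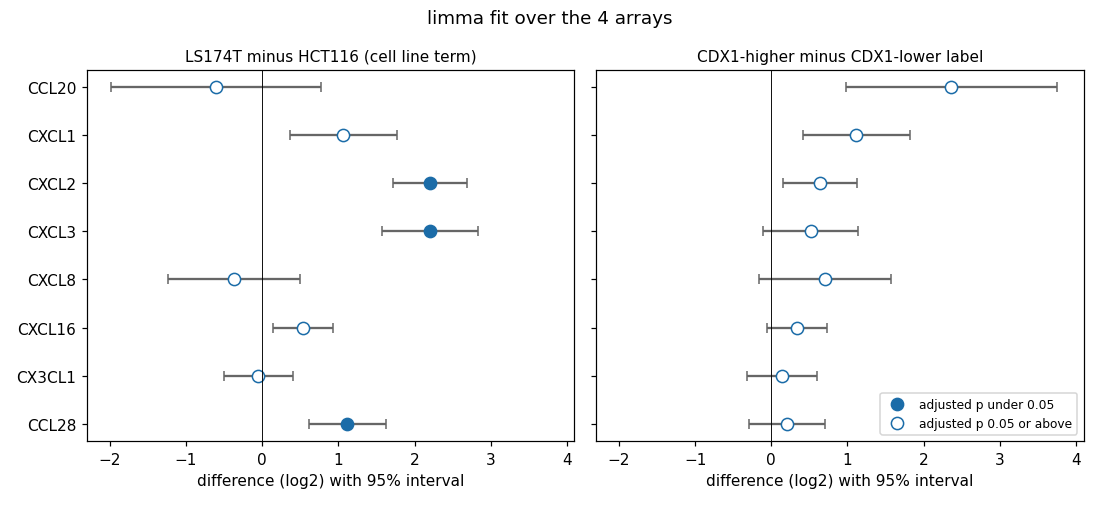
limma estimates (log2, x axis) with 95% intervals for the 8 tested chemokine genes, for LS174T minus HCT116 (left) and for CDX1-higher minus CDX1-lower labels (right). Filled points have an adjusted p under 0.05: CXCL2, CXCL3 and CCL28 on the left, and none on the right.

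Other chemokines and the receptors were read in the same comparisons. These lists and those below were also chosen with earlier results of these data known, so their counts describe and do not test. Of 35 other chemokine genes 30 were on the array, and among 21 or 22 measured ones 0 changed in either pair or between the vector arrays. Of all measured genes, 0.598% rose and 1.25% fell in the LS174T pair, and 0.916% rose and 0.97% fell in the HCT116 pair. Between the vector arrays 6.03% were higher and 7.33% lower in LS174T-siVec. In the chromosome 4 cluster, PF4, a platelet chemokine, was among the measured ones at 7.47 to 8.13, while CXCL6 and PF4V1 at 3.51 to 4.22 and PPBP at 5.52 to 5.90 were under 6 throughout. Of the receptors, CXCR4, which binds CXCL12 and not the chemokines examined here, rose by 1.99 in LS174T-siCDX1, to 8.86 against 6.87 in LS174T-siVec. It was the 1 of 15 measured receptor genes that changed there (6.67%, beside the 0.598% of all measured genes that rose), and 0 of 16 did in the HCT116 pair. The CXCR4 readings did not exceed those of COL1A1, so this rise is as read. CXCR2 and CCR6, receptors of the neutrophil attractants and of CCL20, read under 6 on all 4 arrays, and CCR3 was not read. CXCR1, CXCR6, CX3CR1 and CCR10 read 6.25 to 8.39 and differed by at most 0.38 in any comparison.

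Genes upstream of chemokine transcription were read next. Of 15 measured NF-kappaB subunit, kinase and inhibitor genes 0 changed in either pair, beside 0.598% to 1.25% of all measured genes in each direction. Their medians were -0.02 in LS174T-siCDX1 and 0.36 on the array labelled HCT116-CDX1, beside -0.01 over all measured genes in each pair. NFKB2, the p100 subunit gene, was lower in LS174T-siVec than in HCT116-Vec, at -1.19. It was the 1 of 15 (6.67%) that was lower, beside 7.33% of all measured genes. Among receptors and adaptors of inducing signals, TNFRSF1B, the second TNF receptor, fell by 1.54 in LS174T-siCDX1, the 1 of 18 measured that changed (5.56%, beside the 1.25% of all measured genes that fell). It read 7.84 in LS174T-siCDX1 and 9.38 in LS174T-siVec, and 6.78 both on the array labelled HCT116-CDX1 and in HCT116-Vec. Between the vector arrays it was 2.60 higher in LS174T-siVec, together with the adaptor genes IRAK1 at 1.26 and MYD88 at 1.15, so that 3 of 19 (15.8%) were higher, beside 6.03% of all measured genes. The interleukin-1 receptor gene IL1R1 was lower, at 4.41 in LS174T-siVec against 7.58 in HCT116-Vec, a difference of -3.17 as read and of -1.58 with the lower reading set to 6. It was the 1 of 19 (5.26%) that was lower, beside 7.33% of all measured genes.

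Other target genes of inflammatory signals were counted in the same way. In LS174T-siCDX1, PLAU, the urokinase gene, at -1.20 and LCN2, the siderophore-binding lipocalin gene, at -1.07 fell. They were 2 of 16 measured (12.5%), beside 1.25% of all measured genes, while the list median was 0.14, beside -0.01 over all measured genes, and 12 lay above 0. On the array labelled HCT116-CDX1 0 of 17 changed, where 0.916% of all measured genes rose and 0.97% fell. LCN2 was 1.61 higher in LS174T-siVec than in HCT116-Vec, while PLAU at -1.57 and the adhesion molecule gene ICAM1 at -1.44 were lower. That was 1 of 16 measured (6.25%) higher and 2 (12.5%) lower, beside 6.03% and 7.33% of all measured genes. Of 8 AP-1 genes 0 changed in either pair, beside 0.598% to 1.25% of all measured genes in each direction. FOSL1 at -2.59, ATF3 at -2.22 and FOSL2 at 1.58 differed between LS174T-siVec and HCT116-Vec. That was 1 of 8 (12.5%) higher and 2 (25%) lower, beside 6.03% and 7.33% of all measured genes. Of 8 genes for the decay of AU-rich messages, which include chemokine messages, 0 changed in any comparison, beside the same shares of all measured genes. Among 5 proteases that shed or trim chemokines, DPP4, a peptidase that clips chemokine ends, rose by 1.41 on the array labelled HCT116-CDX1 and fell by 1.76 in LS174T-siCDX1. It was the 1 of 5 (20%) that changed in each pair. Of all measured genes, 0.916% rose in the HCT116 pair and 1.25% fell in the LS174T pair. ADAM17, a sheddase of CX3CL1, differed by -1.06 between LS174T-siVec and HCT116-Vec, and ADAM10, which sheds CX3CL1 and CXCL16, by 0.99. ADAM17 was the 1 of 5 (20%) that was lower, beside 7.33% of all measured genes.

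**Figure D5:**
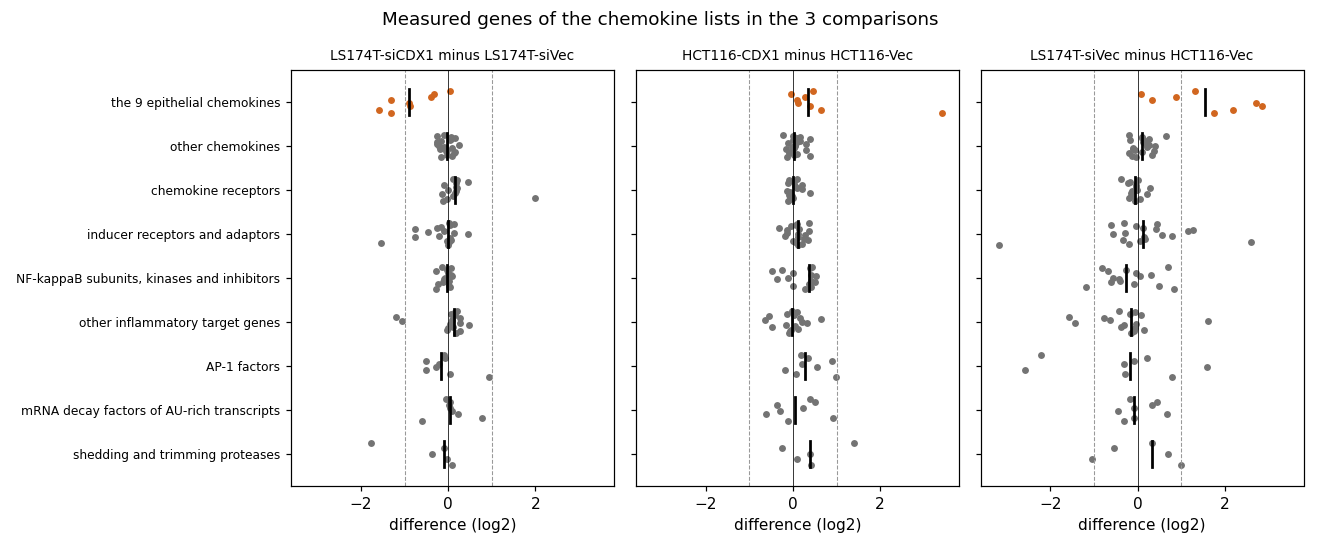
Difference (log2, x axis) of each measured gene of the 9 epithelial chemokines (orange) and of 8 related lists (grey) in the 3 comparisons. Black bars are list medians and dashed lines mark 2-fold; the chemokine medians are -0.89, 0.34 and 1.54 from left to right.

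For the 6 chemokine genes that reached 6 and spanned at least 1, the 3 genes closest in pattern over the 4 arrays were found among 3460 other genes by the root mean square difference after each gene's mean was removed. Those closest to CCL20 were ANTXR2 at 0.33, KRT20 at 0.56 and SYTL2 at 0.59. KRT20, the gene the series was about, read 5.45 in LS174T-siCDX1 and 8.15 in LS174T-siVec, and 9.38 on the array labelled HCT116-CDX1 and 6.36 in HCT116-Vec. CXCL1 ran closest to CYP4F2 at 0.07, SULT1C2 at 0.09 and LDHD at 0.13. ANGPT1 was the closest gene outside the 9 to both CXCL3, at 0.06, and CXCL2, at 0.11, and SIDT1 was near both as well, at 0.11 and 0.12. The third for CXCL3 was CCDC196 at 0.08 and for CXCL2 the fucosyltransferase gene FUT3 at 0.12. CXCL8 ran closest to GCNT1 at 0.09, MYOM3 at 0.12 and the keratin gene KRT8 at 0.15, and CCL28 to NEO1, SIGIRR and PRORSD1P, at 0.03 to 0.04. Readings under 6 entered this measure as read, such as CCL20 at 5.45 in HCT116-Vec. LDHD at 5.02, SIDT1 at 4.19 and CCDC196 at 3.98 were also under 6 on that array. Likeness over 4 arrays is a description.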

How the data were processed

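One Affymetrix expression array per modified cell line was analysed, 4 in all, each placed in its group by its title. Per the labels' protocols, 2 µg of total RNA gave the biotinylated cRNA hybridised. The deposited values were log2 expression, made by the authors with RMA per the submitters' processing notes; the RMA version and the arrays normalised together are not given in the sources used here. Values, 3.20 to 14.6 over 54675 probe sets, were used as deposited.

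Gene names came from the platform annotation, with symbols checked by gene identifier against RefSeq of GRCh38.p14 (41043 of 41097 single-gene probe sets matched). Each gene was represented by its brightest probe set on average. Measured meant at least 6 on the brighter array, and changed at least 2-fold. No p-value was computed for 2 arrays. The fit over 4 arrays used limma 3.58.1 in R 4.3.3, with 1 residual degree of freedom and Benjamini-Hochberg adjustment. Both procedures were tested on simulated data. Other steps used Python 3.11.15.

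The 9 genes and the 8 other lists were chosen with earlier results of these data known. Named genes were all 9, up to 3 members of each other list past 2-fold in each comparison, the receptors of the 9 ligands and the 3 nearest genes in pattern; further genes were chosen after their values were seen. Alternatives were other floors, thresholds, normalizations, probe set choices and limma settings.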

Additional observations from a re-analysis of the deposited data

Results flagged for a closer look

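The difference between CDX1-higher and CDX1-lower labels had opposite signs in the 2 lines for CX3CL1 and CCL28. For CX3CL1 it was -0.05 in HCT116 and 0.32 in LS174T, so that HCT116 minus LS174T was -0.37. For CCL28 it was 0.45 in HCT116 and -0.04 in LS174T, so that HCT116 minus LS174T was 0.50. With 1 array per modified line the difference between the lines was not tested for either gene. CX3CL1 in HCT116 read 0.01 as the mean of its probe sets, which is no longer opposite in sign. No difference of these genes within a pair reached 2-fold.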

How the results depend on the processing

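Under 6 of the alternatives, 159 differences of single chemokine genes were recomputed, and 157 kept their side of the 2-fold line. Many of them could not leave it, so this count does not measure robustness. CCL20, CXCL1, CXCL3 and CXCL16 have 1 probe set, so the probe set choices left them as they were. Setting readings under 6 to 6 moved only CCL20 among the measured genes, and CXCL5 was never measured. The exceptions concern the choice of probe sets. Without probe sets of shared name, CXCL2 was -0.10 between LS174T-siVec and HCT116-Vec in place of 2.84, and 0.19 in the LS174T pair in place of -0.87; CXCL8 then had no probe set left. CCL28 was 0.99 between the vector arrays as the mean of its probe sets. Differences of CXCL5, under 6 throughout, changed sign under several settings. At 1.5-fold, 5 chemokine genes changed in the LS174T pair (3 at 2-fold) and 2 in the HCT116 pair (1 at 2-fold), against 838 and 1603 of all genes (312 and 319 at 2-fold). At 3-fold the counts were 0 and 1, against 129 and 69 of all genes. Between the vector arrays 4517 of all genes differed at 1.5-fold and 1114 at 3-fold, beside 2278 at 2-fold. The limma cell line term called 3 or 4 chemokine genes in every setting tried, beside 2605 to 3415 of the 16418 to 19775 genes tested. CXCL1 was the fourth, with a limma adjusted p of 0.0438 to 0.266 over the settings. The range was 0.00169 to 0.026 for CXCL2, 0.00352 to 0.013 for CXCL3 and 0.0122 to 0.0303 for CCL28. No limma setting left out probe sets of shared name. The range for CXCL2 thus cannot show whether its call rests on the _x_at probe set. The CDX1 label term called 0 genes in every setting. Leaving out 1 array left 3 arrays for 3 coefficients and thus no test; the cell line values were then 0.61 to 1.53 for CXCL1, 1.97 to 2.44 for CXCL2, 1.82 to 2.60 for CXCL3 and 0.87 to 1.37 for CCL28. The label values were then 1.31 to 3.41 for CCL20, at 1.31 without either HCT116 array, and 0.65 to 1.57 for CXCL1, at 0.65 without either LS174T array. With its probe sets averaged, CXCL2 was 0.92 for the cell line. With cell line as a term, the fit compared the CDX1 label within each pair of arrays. Readings near 6 limit CCL20, whose folds are lower bounds.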

Other observations

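Genes on either side of the chemokine cluster were singled out after their values were seen. RASSF6, a Ras association domain gene next to CXCL8 in RefSeq order with only noncoding genes between, read 5.53 in LS174T-siCDX1 and 8.01 in LS174T-siVec, and 7.89 on the array labelled HCT116-CDX1 and 7.32 in HCT116-Vec. It fell in LS174T-siCDX1, the difference being -2.01 with the lower reading set to 6 and -2.48 as read, and in the HCT116 pair it differed by 0.58. MTHFD2L, a folate enzyme gene next to CXCL2, read 9.71 in LS174T-siCDX1 and 9.44 in LS174T-siVec, and 6.32 on the array labelled HCT116-CDX1 and 7.52 in HCT116-Vec. It fell by 1.21 in the HCT116 pair, differed by 0.27 in the LS174T pair and was 1.92 higher in LS174T-siVec than in HCT116-Vec. EREG, the epiregulin gene farther along, read 11.35 to 12.36 and differed by less than 2-fold in each comparison.

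Among the marker genes of other cells LYZ, the lysozyme gene, was the one to differ by cell line. It read 11.74 in LS174T-siCDX1 and 11.25 in LS174T-siVec, and 5.21 on the array labelled HCT116-CDX1 and 4.97 in HCT116-Vec. Lysozyme is also made by Paneth cells of the gut epithelium. PTPRC, the pan-leukocyte gene, read 6.51 to 6.85 and differed by at most 0.34 in the 3 comparisons.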
